A study of Homo sapiens with 12 samples.

Results

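The expressed ZNF genes are the rows of the expression table whose symbol is ZNF followed by a number and at most 1 letter, and whose mean level over all 12 libraries was at least 4 FPKM (a level scaled to gene length and to sequencing depth). The rule kept 94 genes of 561 ZNF rows (16.8%), in a table of 54261 genes. Membership was chosen on the mean level over all libraries, so the height of that level is a description. Differences between groups were not used as such, but a high level in some groups could bring a gene in. All 94 passed the filter for testing. RNA was taken from BON-1, an established human pancreatic neuroendocrine tumour cell line, either grown alone or sorted by flow cytometry out of a shared culture with CAFs, a term that usually stands for cancer-associated fibroblasts. There were 4 groups of 3 libraries, BON-1 alone and BON-1 from co-cultures of 10:2, 10:4 and 10:6, the ratio of tumour cells to CAFs. Most libraries are thus co-cultures. ZNF24, ZNF131, ZNF106, ZNF608, ZNF462, ZNF512 and ZNF296 had means under 4 FPKM in BON-1 alone and met the rule only through the co-cultures. In the other direction, ZNF574 lay under 4 FPKM in every 10:4 and 10:6 library. The labels name 1 cell line, no genotype or drug, no culture time, no purity of the sort and no origin of the CAFs. Libraries were made from polyA-selected RNA. Their extraction text, which speaks of sorting, is the same for BON-1 alone, so whether those cells passed through a sorter is uncertain. Nothing in the labels says that libraries came from separate cultures, so p-values measure the spread between these libraries, which may be technical.

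ZNF symbols are given to proteins that carry zinc fingers, mostly of the C2H2 kind, in which a pair of cysteines and a pair of histidines hold a zinc ion and a short helix reads DNA. Many also carry a KRAB domain, which recruits the co-repressor TRIM28 and through it the methyltransferase SETDB1 and heterochromatin proteins of the CBX family, or a SCAN domain, through which such proteins pair with each other. KRAB zinc finger genes lie in large tandem clusters, above all on chromosome 19, and are best known for silencing retroelements. Other ZNF proteins bind RNA, ribosomes or the mitotic spindle and are not transcription factors.

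Reads counted on genes numbered 11703624 to 21882537 per library, and 13312 genes that reached 1 FPKM in 3 or more libraries entered the test. The expressed ZNF genes drew 49357 to 91795 reads per library, the median gene 364.5 to 677 and the lowest gene 65 to 139. Neuroendocrine markers were present, with a summed level of 2698.75 to 2776.6 FPKM in BON-1 alone and 3034.86 to 3122.37 at 10:6 over 10 genes. Of the 8 tested, 4 were higher and 4 lower at 10:6: the granule protein SCG2 went from 746.7 ± 5.35 to 1400.53 ± 7.84 FPKM, and CHGA, chromogranin A, from 1346.68 ± 25.9 to 975.1 ± 39.2 (SD, n = 3). Fibroblast markers moved with the co-cultures. Of 20 on the list 16 were tested, 9 were higher at 10:2 and 14 at 10:4 and at 10:6, with a median log2 change of 0.31, 1.02 and 1.301. COL1A1, a chain of type I collagen, had a mean of 9.22 ± 0.148 FPKM (SD, n = 3) in BON-1 alone and 54.4 ± 0.794 at 10:6. The summed level of the list was 2409.98 to 2491.22 FPKM in BON-1 alone, 2284.9 to 2363.56 at 10:2, 2377.54 to 2624.69 at 10:4 and 2563.56 to 2850.11 at 10:6. S100A4 alone had a mean of 2280.59 FPKM in BON-1 alone and 2314.85 at 10:6. FAP and DCN were the markers of the list with a 0 in some library. Whether RNA of CAFs takes part in any ZNF difference below was not tested, and fewer transcripts per cell cannot be told apart from a different mixture of cells.

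Levels within the family were uneven. Of the 94 genes 14 lay at 20 FPKM or above, 26 between 10 and 20, and 54 below 10, with a median of 8.21. ZNF511 stood highest with a mean of 141.3, but 46.8% of its exon bases are shared with TUBGCP2 or the readthrough gene ZNF511-PRAP1, so its reads cannot be assigned with certainty. ZNF622, a factor in maturation of the large ribosomal subunit, followed with 88.5, and ZNF598, the ubiquitin ligase that marks collided ribosomes, with 59.9. ZNF593, also linked to ribosome assembly, had 47.9, with all its exon bases shared with another annotated gene. After these came ZNF503 (40.4), a co-repressor of the NET family, ZNF580 (34.6), ZNF207 (29.9), a spindle-assembly factor that binds BUB3, and ZNF672 (29.7). At the threshold, ZNF628 (4.17), ZNF296 (4.03) and ZNF574 (4.02) were just inside, and ZNF761 (3.99), ZNF576 (3.82) and ZNF385A (3.67) just outside. A further 112 ZNF rows had means from 1 to under 4, 355 lay under 1, and 54 of the 561 were at 0 in every library.

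Domains the rule did not use also set the expressed genes apart from the rest of the family. A search of translated coding sequences found fingers with neither KRAB nor SCAN in 61 of the 94, KRAB in 20, KRAB with SCAN in 4 (ZNF263, ZNF394, ZNF213 and ZNF274), SCAN in 6 (ZNF24, ZNF174, ZNF232, ZNF444, ZNF446 and ZNF496), and no canonical finger in 3 (ZNF503, ZNF703 and ZNF330). A strict motif in place of the profile used found KRAB in 13 of the 94 and SCAN in 6, against 24 and 10. Across the table, 24 of 334 rows with KRAB (7.19%) reached the level of 4 FPKM, against 70 of 172 rows (40.7%) with a protein and no KRAB. The median mean level was 6.91 FPKM for the 24 with KRAB and 9.68 for the 61 with fingers alone. Expressed genes had a median of 6.5 fingers, other ZNF rows 11, and ZNF462, with 33, had the most. Transcript GC content was higher among expressed genes, with a median of 57.5% (36.9 to 71.1%), against 44.1% for the 112 ZNF rows at 1 to under 4 FPKM.

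Compared with BON-1 alone, some expressed ZNF genes rose in co-culture, a few of them strongly. Others fell slightly, and called falls outnumbered called rises at 10:4 and 10:6 but not at 10:2. Limma's moderated test on log2(FPKM + 1), with Benjamini-Hochberg adjustment over all genes tested and a threshold of 0.05, called 12 higher and 7 lower at 10:2, where 19.9% and 7.46% of all genes were called. At 10:4 it called 11 higher and 24 lower, with 27.3% and 18.1% of all genes. At 10:6 it called 14 higher and 29 lower, with 29.7% and 18.3% of all genes. As shares of the 94, the rises were 12.8%, 11.7% and 14.9%, below the background each time, and the falls were 7.45%, 25.5% and 30.9%, near the background at 10:2 and above it at 10:4 and 10:6. The median log2 change was -0.06, -0.10 and -0.09, against 0.00, -0.01 and 0.02 over all genes tested. The split depended on scaling: after quantile normalization 8 were higher and 16 lower at 10:2, 9 and 44 at 10:4, and 9 and 47 at 10:6, while the share of all calls that were higher went from 72.8%, 60.2% and 61.8% to 61.9%, 43.7% and 44.9%. The 7 falls at 10:2 became 4 without BON-1 alone replicate 1 or 3, and 3 without 10:2 replicate 3. All 3 comparisons share the BON-1 alone libraries. Over them, 11 genes were higher each time, 5 were lower each time (ZNF622, ZNF503, ZNF408, ZNF687 and ZNF74), 48 were called in none and 0 were called in both directions. Such counts over all genes are not given here for comparison. The moderated F test over the 4 groups called 37 of 94, below its background of 44.4%. Summed over the family, the level was 1334.11 to 1346.85 FPKM in BON-1 alone, 1256.15 to 1310.76 at 10:2, 1266.07 to 1268.12 at 10:4 and 1250.09 to 1280.27 at 10:6. No co-culture library reached the lowest BON-1 alone sum. The spread between replicates was small, with a median coefficient of variation of 4.83 to 5.54% by group.

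**Figure D1:**
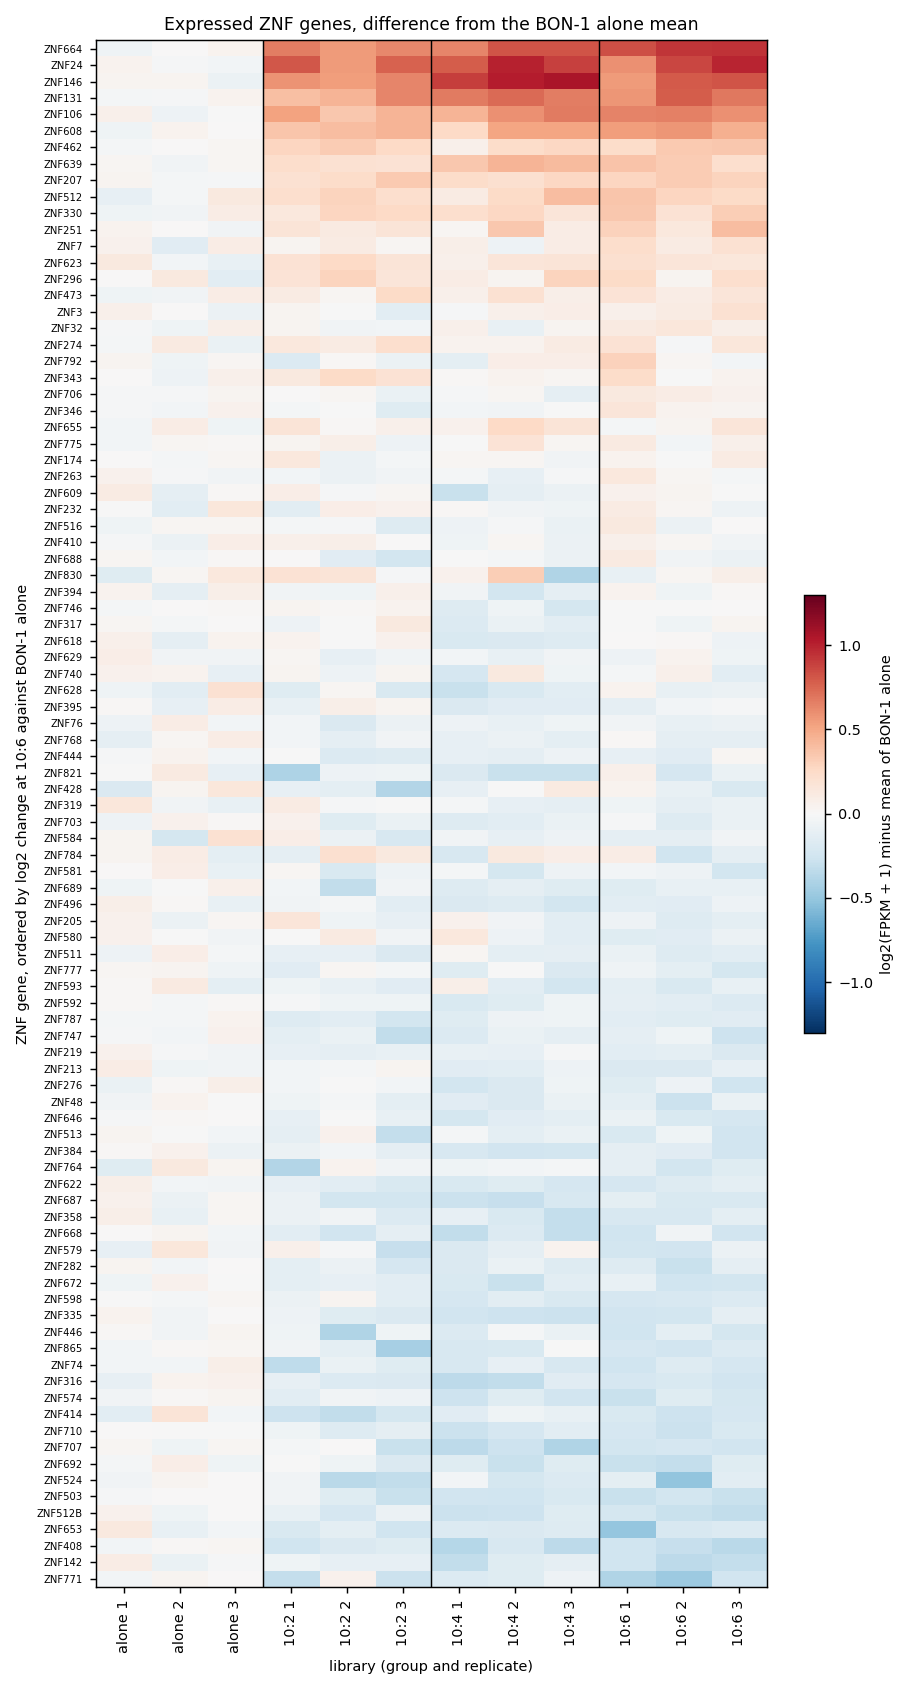
Rows are the 94 expressed ZNF genes, ordered by their log2 change at 10:6, columns are the 12 libraries, and colour is log2(FPKM + 1) minus the gene's mean in BON-1 alone. The top rows, from ZNF664 to ZNF608, are orange to dark red in every co-culture library, and a wide band at the bottom is pale blue.

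The largest rises were in 6 genes that were higher in every co-culture. Among them ZNF24, ZNF131, ZNF106 and ZNF608 met the level rule only through the co-cultures, as given above. ZNF664 encodes a protein made largely of C2H2 fingers. Its level was 12.2, 12.8 and 13.1 FPKM in BON-1 alone, 20.7, 19.1 and 20.2 at 10:2, 20.3, 23.1 and 23.2 at 10:4, and 23.5, 25.1 and 25.2 at 10:6. Every co-culture library lay above every BON-1 alone library, and the 10:6 libraries above all others. The log2 change was 0.62, 0.76 and 0.90 (SE 0.055) at 10:2, 10:4 and 10:6, with adjusted p in limma of 1.59e-05, 1.22e-06 and 3.61e-07. ZNF664 lies on chromosome 12 from 123973215 to 124015427 (GRCh38.p14), and 6.0% of its exon bases are shared with other annotated genes.

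ZNF24, a SCAN zinc finger protein known as a repressor of VEGFA, was at 2.62, 2.48 and 2.41 FPKM in BON-1 alone, 5.14, 4.14 and 4.97 at 10:2, 5.04, 6.02 and 5.504 at 10:4, and 4.29, 5.41 and 5.94 at 10:6. Its co-culture libraries overlapped each other and lay clear of BON-1 alone. The log2 change was 0.71, 0.89 and 0.82 (SE 0.101), with adjusted p in limma of 0.000387, 3.1e-05 and 5.68e-05. ZNF146, also called OZF, consists almost wholly of fingers. It was at 4.55, 4.57 and 4.15 FPKM in BON-1 alone, 7.11, 6.90 and 7.39 at 10:2, 9.14, 10.0 and 10.3 at 10:4, and 6.94, 8.39 and 8.57 at 10:6. Its highest group was 10:4, whose libraries lay above all others. Its log2 change was 0.59, 1.00 and 0.72 (SE 0.073), with adjusted p in limma of 0.000164, 1.23e-06 and 1.3e-05.

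ZNF131 carries a BTB domain, a protein contact module shared with the ZBTB factors. Its mean was 3.45 ± 0.128 FPKM in BON-1 alone, 5.27 ± 0.58 at 10:2, 6.19 ± 0.195 at 10:4 and 6.16 ± 0.53 at 10:6 (SD, n = 3). ZNF106, an RNA-binding protein that acts in splicing, went from 3.76 ± 0.218 to 5.46 ± 0.379, 6.09 ± 0.577 and 6.37 ± 0.165. ZNF608, a large protein with a single finger, went from 3.76 ± 0.164 to 5.29 ± 0.188, 5.41 ± 0.634 and 5.86 ± 0.274. In each of these genes the libraries of every co-culture lay above those of BON-1 alone. At 10:6 their log2 changes were 0.68, 0.63 and 0.53, with adjusted p in limma of 1.93e-05, 2.17e-05 and 0.000104.

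**Figure D2:**
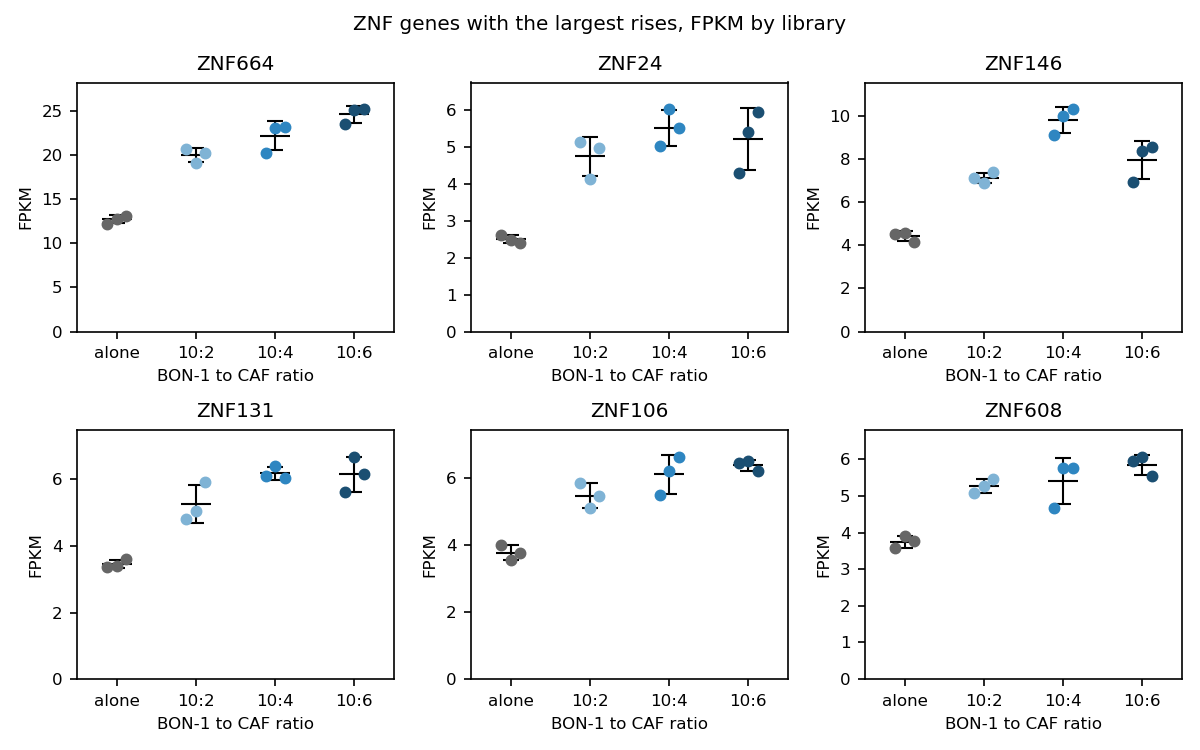
Each panel shows 1 gene, with FPKM on a linear axis from 0, the 4 groups along the horizontal axis, a point per library, and the mean with 1 SD in black. In all 6 panels every co-culture point lies above every BON-1 alone point, ZNF664 climbs to a mean of 24.6 at 10:6, and ZNF146 peaks at 10:4.

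Promoters are shown for some of the genes that rose or fell in co-culture, and whether these genes share regulation was not tested. RefSeq (GRCh38.p14) gave a promoter for 77 of the 94, of which the 200 bases before the annotated start were used, written 5′ to 3′ on the gene's strand. Capitals mark the GC box GGGCGG, bound by SP and KLF factors, and the ETS core CCGGAA, each read on both strands. The first 4 are of genes that rose and the last 2 of genes that fell.

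ZNF664, chr12:123973015-123973214 (+ strand): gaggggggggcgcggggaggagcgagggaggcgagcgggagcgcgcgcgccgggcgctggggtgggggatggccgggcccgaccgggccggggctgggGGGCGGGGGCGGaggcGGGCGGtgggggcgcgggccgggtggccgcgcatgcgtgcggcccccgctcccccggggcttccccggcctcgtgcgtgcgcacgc

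ZNF24, chr18:35344421-35344620 (- strand): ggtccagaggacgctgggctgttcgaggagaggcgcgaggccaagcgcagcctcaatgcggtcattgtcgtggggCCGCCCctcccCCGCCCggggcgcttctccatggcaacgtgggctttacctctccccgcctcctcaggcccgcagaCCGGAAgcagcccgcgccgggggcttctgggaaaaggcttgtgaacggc

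ZNF106, chr15:42491142-42491341 (- strand): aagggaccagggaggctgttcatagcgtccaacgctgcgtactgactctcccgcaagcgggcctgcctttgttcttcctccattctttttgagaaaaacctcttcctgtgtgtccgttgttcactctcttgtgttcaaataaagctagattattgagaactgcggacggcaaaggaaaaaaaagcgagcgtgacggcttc

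ZNF608, chr5:124748825-124749024 (- strand): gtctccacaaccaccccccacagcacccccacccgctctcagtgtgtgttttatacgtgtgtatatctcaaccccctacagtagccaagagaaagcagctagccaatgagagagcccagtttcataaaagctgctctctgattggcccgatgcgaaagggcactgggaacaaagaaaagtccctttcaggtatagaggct

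ZNF771, chr16:30407406-30407605 (+ strand): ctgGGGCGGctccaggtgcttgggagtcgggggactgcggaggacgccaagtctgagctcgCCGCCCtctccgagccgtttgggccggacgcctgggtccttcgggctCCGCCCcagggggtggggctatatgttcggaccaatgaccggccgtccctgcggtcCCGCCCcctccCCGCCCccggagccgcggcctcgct

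ZNF408, chr11:46700831-46701030 (+ strand): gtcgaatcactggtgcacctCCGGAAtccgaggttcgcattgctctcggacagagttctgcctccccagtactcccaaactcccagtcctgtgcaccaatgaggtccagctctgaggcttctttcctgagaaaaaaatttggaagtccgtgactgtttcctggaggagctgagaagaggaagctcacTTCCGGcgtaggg

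The windows of ZNF106 and ZNF608 hold neither motif. A GC box stood in 49 of the 77 windows (63.6%), against 39.9% of all 27305 promoters in the table, and an ETS core in 25 (32.5%), against 13.2%. The TATA box TATAAA stood in 2 (2.6%), against 8.92%, and CCAAT in 21 (27.3%), against 28.9%. All 4 motifs were read on both strands, and matches of different motifs may share letters. The median GC content of the window was 66.5%, against 58.5% over all promoters. The median GC content was 63.5% over the 10 windows of genes that rose at 10:6 and 65.5% over the 26 of genes that fell. A GC box stood in 7 of the 10 and in 16 of the 26. These matches are a description of the letters and were given no test. The promoters of the whole table were counted whether or not the gene was expressed here, and expressed genes alone were not compared.

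A second set of rises was smaller. ZNF207 was at 26.5, 25.3 and 25.6 FPKM in BON-1 alone, 29.8, 30.7 and 33.0 at 10:2, 30.6, 29.9 and 31.3 at 10:4, and 31.6, 32.7 and 31.9 at 10:6. No library of a co-culture overlapped BON-1 alone, and the log2 change was 0.26, 0.24 and 0.30 with adjusted p in limma of 0.0006, 0.000589 and 9.23e-05. ZNF639 rose from a mean of 4.82 ± 0.147 FPKM to 5.70 ± 0.1, 6.68 ± 0.239 and 6.21 ± 0.404, and ZNF330, a nucleolar protein, from 12.97 ± 0.809 to 15.3 ± 0.803, 15.2 ± 0.614 and 15.999 ± 1.02. ZNF462, a chromatin regulator, and ZNF512 were also higher in each co-culture, with log2 changes of 0.31 and 0.30 at 10:6. In ZNF512 the libraries of 10:4 overlapped those of BON-1 alone. ZNF251, a KRAB gene, was called at 10:6 only, with a log2 change of 0.28 and an adjusted p in limma of 0.0181. That call rested on single libraries: it was lost, with an adjusted p of up to 0.0784, without BON-1 alone replicate 3 or without 10:6 replicate 3. Whether its change at 10:6 differs from that at the other ratios was not called (log2 change 0.13 or less against either).

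Falls were broad and shallow. No expressed ZNF gene fell by more than 0.37 on the log2 scale at 10:6, and the 29 that fell did so by 0.13 to 0.37. ZNF771 fell the most, from 12.1, 12.8 and 12.6 FPKM in BON-1 alone to 9.25, 8.70 and 10.3 at 10:6, with 9.87, 13.01 and 10.1 at 10:2 and 10.9, 11.1 and 11.9 at 10:4. Its 10:2 libraries overlapped BON-1 alone, and the fall passed the test at 10:6 only (log2 change -0.37, SE 0.089, adjusted p in limma 0.00465). ZNF142, a protein of 31 fingers, went from 11.6, 10.1 and 10.7 FPKM to 8.82, 8.32 and 8.49 at 10:6, with no overlap and a log2 change of -0.31 (adjusted p in limma 0.00153). ZNF408, a gene linked to retinal vascular disease, went from 13.2, 13.7 and 13.9 FPKM to 11.2, 11.8 and 12.1 at 10:2, 10.3, 11.7 and 10.5 at 10:4, and 11.2, 10.8 and 10.4 at 10:6. It was lower in each co-culture, with log2 changes of -0.20, -0.31 and -0.30 and adjusted p in limma of 0.013, 0.000505 and 0.000483, the first of which became 0.0519 without 10:2 replicate 1.

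ZNF503 acts with the related ZNF703 as a NET family co-repressor. It was at 45.001, 45.4 and 45.6 FPKM in BON-1 alone and at 37.0, 38.2 and 37.0 at 10:6, and it fell in each co-culture by 0.17, 0.23 and 0.27 on the log2 scale. Its call at 10:2 was lost without any 1 of 5 libraries: all 3 of BON-1 alone, or 10:2 replicate 2 or 3. ZNF703 itself had a mean of 15.2 ± 0.644 FPKM in BON-1 alone and 14.2 ± 0.789 at 10:6 and passed no test against BON-1 alone. ZNF512B fell at 10:4 and 10:6, from 20.8 ± 0.823 to 17.6 ± 0.882 and 17.0 ± 0.544, and ZNF710 likewise, from 28.2 ± 0.0876 to 24.3 ± 1.29 and 23.9 ± 0.721. The other falls named by size at 10:6 were those of ZNF653, ZNF692, ZNF707, ZNF414, ZNF574 and ZNF316, with log2 changes from -0.30 to -0.22. Those of ZNF653, ZNF707, ZNF414 and ZNF316 were lost without some 1 library: BON-1 alone replicate 1 for ZNF653, BON-1 alone replicate 1 or 3 or 10:6 replicate 3 for ZNF707, BON-1 alone replicate 2 or 10:6 replicate 2 for ZNF414, and BON-1 alone replicate 2 or 3 for ZNF316, with adjusted p up to 0.0639. At 10:2, ZNF414 fell the most (-0.27), followed by ZNF408, ZNF74, ZNF687 and ZNF787. The call of ZNF74 at 10:2 was lost when any 1 library other than 10:2 replicate 2 was left out (adjusted p up to 0.169). At 10:4, ZNF707 fell the most (-0.33), followed by ZNF408, ZNF335, ZNF316, ZNF668 and ZNF687.

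**Figure D3:**
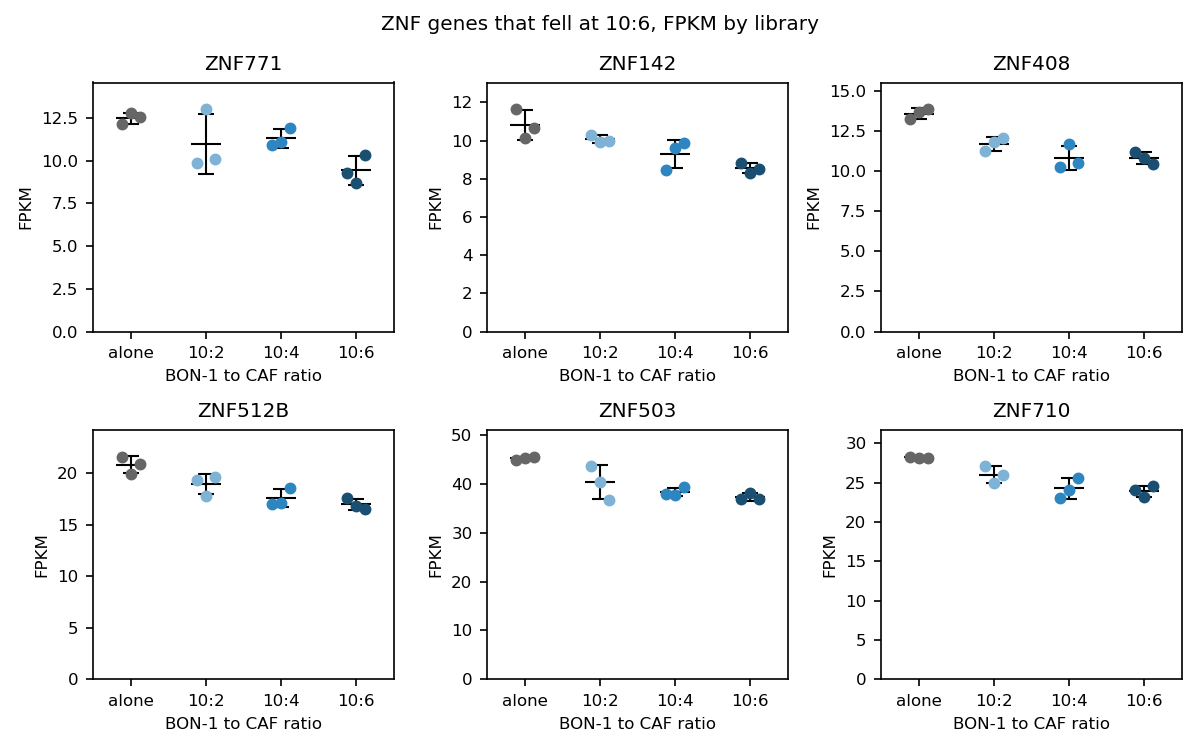
Each panel shows 1 gene that fell at 10:6, drawn as FPKM on a linear axis from 0 by group, with a point per library and the mean with 1 SD in black. At 10:6 all points lie below those of BON-1 alone in every panel, while the steps are small beside the level, as for ZNF503 from 45.3 to 37.4.

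Lists of ZNF genes with a known role, mostly outside classical repression, were compared with the 94. The lists were written with earlier results of these data known. Of 8 listed for ribosomes and RNA 6 were expressed at this level, of which 1 fell at 10:2 and 2 at 10:4 and 10:6. ZNF622 was at 101.5, 94.4 and 93.7 FPKM in BON-1 alone and 83.0, 85.8 and 88.0 at 10:6, with no overlap and a log2 change of -0.17 (adjusted p in limma 0.00329). ZNF598 was at 64.4, 63.7 and 66.0 FPKM in BON-1 alone and 55.6, 56.0 and 56.9 at 10:6, also without overlap, with a log2 change of -0.20 (adjusted p in limma 0.00185). The median log2 change of the 6 was -0.06, -0.07 and -0.07 at 10:2, 10:4 and 10:6. ZNF622 also fell at 10:2 (-0.14), a call lost without BON-1 alone replicate 1 or 10:2 replicate 3 (adjusted p up to 0.0693). As shares these are 16.7%, 33.3% and 33.3%, of only 6 genes, against 7.46%, 18.1% and 18.3% of all genes. On FPKM as deposited, ZNF593, ZNF706, ZNF830 and ZNF346 were not called against BON-1 alone. Of 3 listed for chromosome segregation and the cell cycle, ZNF207, described above, and ZNF655, which was not called on FPKM as deposited, were expressed. Of 10 listed for chromatin complexes 4 were expressed, and among these ZNF592 and ZNF687, partners of ZMYND8, fell at 10:4 (-0.14 and -0.26) and at 10:6 (-0.14 and -0.17), and ZNF687 also at 10:2 (-0.18). The falls are 25%, 50% and 50% of only 4 genes at 10:2, 10:4 and 10:6, against 7.46%, 18.1% and 18.3% of all genes. Several of the calls of ZNF592 and ZNF687 rested on single libraries, with adjusted p in limma up to 0.0977 without them. For ZNF592 they were BON-1 alone replicates 1 and 3 and 10:4 replicates 1 and 2 at 10:4, and 10:6 replicate 3 at 10:6. For ZNF687 they were BON-1 alone replicates 1 and 3, with 10:2 replicates 2 and 3 at 10:2 and 10:6 replicates 2 and 3 at 10:6. ZNF410, an activator of CHD4, was at 14.9 ± 0.944 FPKM in BON-1 alone and 15.1 ± 0.607 at 10:6, where CHD4 itself was at 95.8 ± 2.19 and 91.7 ± 2.78. At 10:4 CHD4 was lower, at 87.9 ± 3.41 (log2 change -0.12, adjusted p in limma 0.0112). Of 6 listed as promoter-binding activators 2 were expressed. ZNF76 passed no test and ZNF384 fell at 10:4 and 10:6, from 23.1 ± 1.1 FPKM to 19.6 ± 0.353 and 20.5 ± 0.998. A share of 2 genes cannot be read against the 18.1% and 18.3% of all genes that were lower there. Of 5 listed KRAB factors of imprints and retroelements, which are classical repressors, 0 reached 4 FPKM: ZNF202 had a mean of 2.76, ZNF445 of 1.59 and ZNF91 of 0.0038. Among all rows with KRAB 7.19% reached that level.

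KRAB genes and their machinery were examined as a group. Of the 24 expressed genes with KRAB, limma called 0 higher and 1 lower at 10:2 (2 and 4 at an unadjusted p under 0.05, and 1 and 2 by limma-voom on reads), 0 higher and 5 lower at 10:4 (1 and 6, and 1 and 5), and 2 higher and 5 lower at 10:6. The falls are 4.17%, 20.8% and 20.8% of the 24, near the 7.46%, 18.1% and 18.3% of all genes, and the rises, 0%, 0% and 8.33%, are below the 19.9%, 27.3% and 29.7% of all genes. The median GC content of the 24 was 54.3%. Of all tested genes from 50% GC, 0.92%, 2.14% and 3.28% were higher and 14.3%, 35.0% and 36.2% lower. Of 87 tested KRAB rows under 4 FPKM, 21.8%, 46% and 42.5% were higher and 0%, 2.3% and 0% lower, so the few rises are not a trait of KRAB genes at large. The 2 that rose were ZNF7 and ZNF251. Among 26 genes of the KRAB co-repressor list, 11 were higher and 2 lower at 10:2, 13 and 8 at 10:4, and 13 and 7 at 10:6. These are 42.3%, 50% and 50% higher and 7.69%, 30.8% and 26.9% lower, against 19.9%, 27.3% and 29.7%, and 7.46%, 18.1% and 18.3%, of all genes. TRIM28, the co-repressor that KRAB domains bind, fell. Its level was 267.5, 270.6 and 269.3 FPKM in BON-1 alone, 235.3, 245.6 and 223.2 at 10:2, 221.6, 220.5 and 230.6 at 10:4, and 221.9, 216.6 and 211.4 at 10:6. Every co-culture library lay below every BON-1 alone library, with a log2 change of -0.31 at 10:6 (SE 0.035, adjusted p in limma 2.66e-05). CBX5, the heterochromatin protein HP1 alpha, rose from 9.93 ± 0.417 FPKM to 16.2 ± 1.02 at 10:6, and CBX1 from 20.8 ± 2.31 to 29.1 ± 1.43. SETDB1, the methyltransferase of the complex, was at 9.33 ± 0.27 FPKM in BON-1 alone and 9.29 ± 0.315 at 10:6 and passed no test. DNMT1, the maintenance DNA methyltransferase, and EHMT2 fell at 10:6, to 45.2 ± 1.01 from 52.1 ± 0.448 and to 7.51 ± 0.284 from 8.83 ± 0.246.

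The direction of a ZNF gene followed the GC content of its transcript, taken from the longest transcript in GENCODE 29. The 14 genes that rose at 10:6 had a GC content of 36.9 to 49.4% and the 29 that fell had 51.8 to 70.3%, so the 2 sets did not overlap. Among the 22 genes under 50% GC, 12, 11 and 14 were higher at 10:2, 10:4 and 10:6, and among the 72 at 50% or more 7, 24 and 29 were lower. The 12140 tested genes with a known GC content were split in a similar way: under 50% GC 40.7%, 54.7% and 58.5% were higher, and from 50% GC 14.3%, 35.0% and 36.2% were lower. Of the ZNF genes under 50% GC 54.5%, 50% and 63.6% were higher, and of those from 50% GC 9.72%, 33.3% and 40.3% were lower. At 10:6, 185 of the 6164 genes under 50% GC (3%) were lower and 196 of the 5976 from 50% (3.28%) were higher. The ZNF genes had 0 of only 22 and 0 of only 72, and the difference from those small shares was not tested. The rank correlation of log2 change with GC content (Spearman's rho), a description across genes of the same libraries, was -0.65, -0.57 and -0.71 over the 94 and -0.68, -0.72 and -0.72 over 12046 other genes. GC content is a property of the whole table here, and its part in any 1 gene's change was not tested.

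**Figure D4:**
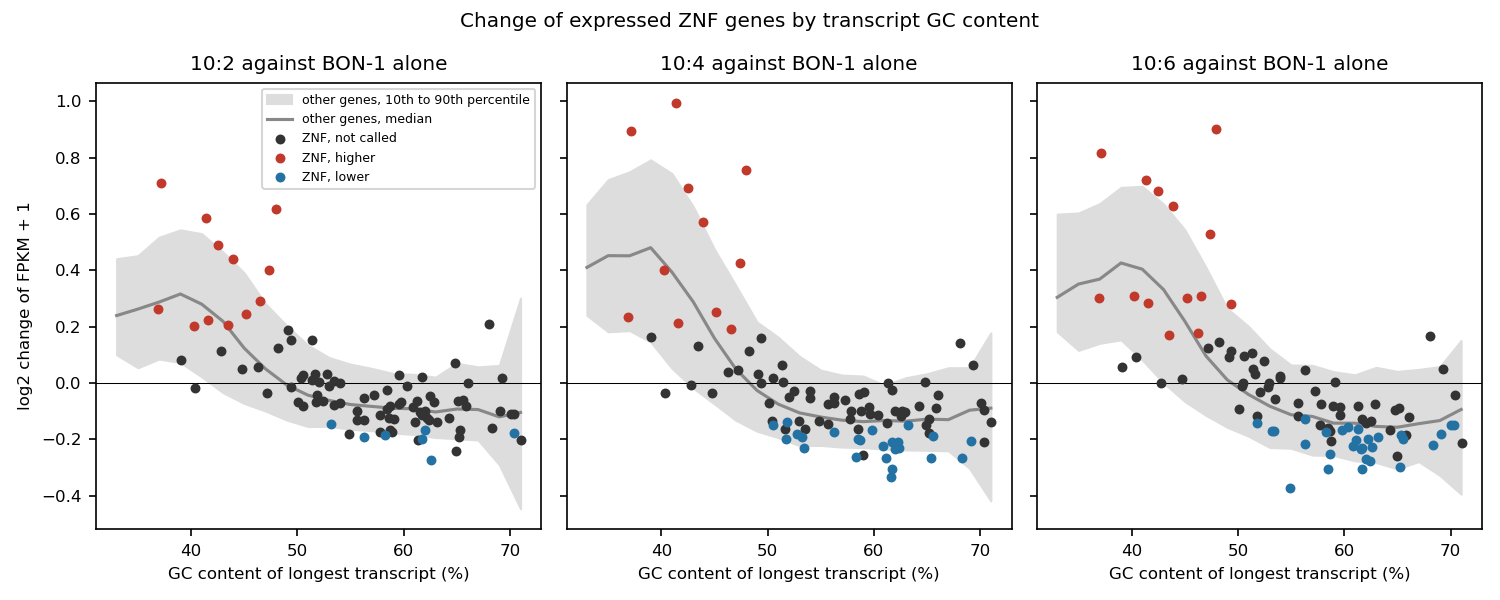
Each panel shows 1 comparison with BON-1 alone, with transcript GC content in percent on the horizontal axis and log2 change of FPKM + 1 on the vertical axis. Points are the 94 ZNF genes, red if higher and blue if lower by limma, the grey line is the median of other genes in bins of GC content, and the band spans their 10th to 90th percentile. Rising ZNF genes all lie under 50% GC. ZNF664, ZNF24 and ZNF146 are among those that stand above the band at each ratio.

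To see which ZNF genes moved beyond this trend, the trends of each library on GC content and gene length were removed over 12140 genes before the fit. The counts became 7 higher and 2 lower at 10:2, with a background of 6.02% and 5.53%, 8 higher and 13 lower at 10:4, with 10.6% and 12.5%, and 10 higher and 10 lower at 10:6, with 11.5% and 14.1%. The same 6 genes described above, ZNF664, ZNF24, ZNF146, ZNF131, ZNF106 and ZNF608, stayed higher in all 3. ZNF664 kept most of its change, with a log2 value of 0.79 at 10:6 (adjusted p in limma 8.31e-07), while the values of ZNF24, ZNF146, ZNF131, ZNF106 and ZNF608 were then between 0.30 and 0.38. ZNF251 was also higher at 10:6 (0.25). ZNF771, ZNF142, ZNF408, ZNF512B, ZNF503, ZNF710 and ZNF592 stayed lower at 10:6, with log2 values from -0.26 to -0.13. The rise of ZNF207 did not hold: its value was -0.06 at 10:2, -0.26 at 10:4 (adjusted p in limma 0.00199) and -0.13 at 10:6. Its longest transcript has 13781 bases and a GC content of 36.9%, against a counted length of 5703 bases, so its GC value may not be that of the RNA counted. ZNF639 and ZNF330 also changed sign at 10:6, to -0.08 and -0.06.

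Some genes were called only once the trends were removed. ZNF706 and ZNF655 were then lower in all 3 comparisons, with log2 values of -0.29 and -0.39 at 10:6, although their FPKM were 24.4 ± 0.52 and 26.0 ± 0.712, and 5.60 ± 0.371 and 5.87 ± 0.46, in BON-1 alone and at 10:6. ZNF410 was lower at 10:4 and 10:6. In the other direction ZNF296 was higher in all 3 (0.30 at 10:6), ZNF775 at 10:4 and 10:6, and ZNF263 at 10:6. The FPKM of ZNF296 were 3.61, 4.01 and 3.17 in BON-1 alone and 4.43, 3.70 and 4.34 at 10:6, which overlap. It had only 96, 139 and 65 reads in BON-1 alone. ZNF775 and ZNF263 also overlapped BON-1 alone at 10:6. These genes were chosen after their values were seen. TRIM28 stayed lower (log2 value -0.18 at 10:6, adjusted p in limma 0.000167), as did DNMT1 and EHMT2, while CBX1 (0.39) and CBX5 (0.24) stayed higher. Of the 26 co-repressor genes, 4 were then higher and 5 lower at 10:6, where 11.5% of all genes were higher and 14.1% lower.

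**Figure D5:**
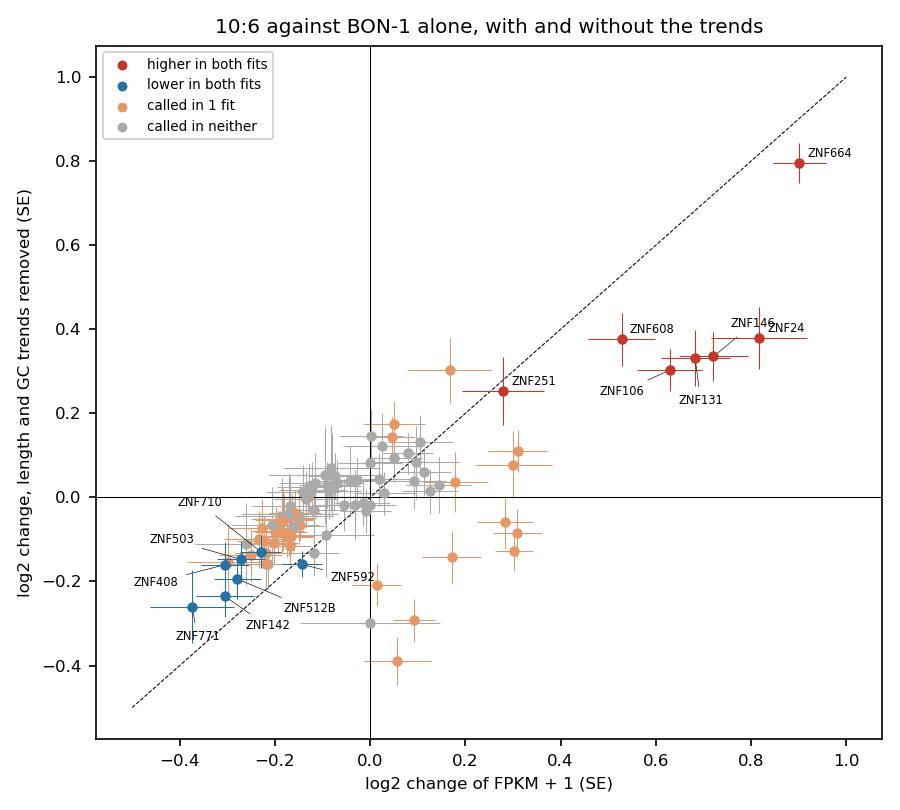
Each point is 1 of the 94 ZNF genes at 10:6 against BON-1 alone, with the log2 change of FPKM + 1 on the horizontal axis, the same after removal of trends on length and GC content on the vertical axis, bars of 1 SE, and a dashed line where both are equal. ZNF664 lies near the line at 0.90 and 0.79, the other strong risers lie well below it, and 7 genes at the lower left were called lower both ways.

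ZNF rows below the level chosen were mostly higher in co-culture where called. Of the 112 with a mean from 1 to under 4 FPKM, limma called 30, 50 and 49 higher and 0, 3 and 0 lower at 10:2, 10:4 and 10:6, with medians of 0.15, 0.23 and 0.24. The rises are 26.8%, 44.6% and 43.8% of the 112, above the 19.9%, 27.3% and 29.7% of all genes and below the 40.7%, 54.7% and 58.5% of genes under 50% GC. At an unadjusted p under 0.05 the lower counts were 1, 5 and 3, and by limma-voom 0, 6 and 2. With the trends removed, 1, 10 and 9 were higher and 2, 8 and 8 lower, where 6.02%, 10.6% and 11.5% of all genes were higher and 5.53%, 12.5% and 14.1% lower. The difference between these rows and the 94 was not tested, and their median GC content was 44.1%, against 57.5%.

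Between co-culture ratios few expressed ZNF genes differed. From 10:2 to 10:4, limma called ZNF146 higher (log2 change 0.41, adjusted p 0.0176) and 0 genes lower, with 2.47% and 0.413% of all genes called. From 10:4 to 10:6 it called 0 higher and 0 lower, with 0.0977% and 0.233%. From 10:2 to 10:6 it called ZNF664 higher (log2 change 0.28, adjusted p 0.0154) and 0 lower, with 4.52% and 2.45%. Unadjusted p under 0.05 gave 5 higher and 15 lower, 6 and 2, and 7 and 9 in the 3 comparisons, and limma-voom gave 1 and 3, 1 and 1, and 2 and 3. The call of ZNF146 was lost without 10:2 replicate 2 or 10:4 replicate 2 (adjusted p up to 0.084), and that of ZNF664 without 10:2 replicate 2 or 10:6 replicate 2 or 3 (up to 0.0656). Both were called with the trends removed, at 0.30 and 0.24, as the only expressed ZNF genes in those comparisons. The backgrounds were then 0.577% and 0.247% for 10:4 against 10:2, 0.255% and 0.519% for 10:6 against 10:4, where 0 and 0 ZNF genes were called, and 1.66% and 1.95% for 10:6 against 10:2. By group mean, 52 genes were highest in BON-1 alone and 20 at 10:6, the means of 5 ascended and those of 15 descended over all 3 steps. The matching counts over all genes are not given here, so these describe the expressed ZNF genes alone.

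Position in the genome was described from RefSeq. Chromosome 19 held 263 ZNF rows, of which 22 (8.37%) were expressed, against 24.2% elsewhere. Chromosome 16 held 18 expressed genes, 10 of them between bases 30378312 and 31084196, and limma called 0, 3 and 6 of the 18 lower and 0 higher at 10:2, 10:4 and 10:6. The falls are 0%, 16.7% and 33.3% of the 18, against 7.46%, 18.1% and 18.3% of all genes and 14.3%, 35.0% and 36.2% of genes from 50% GC. None of the 18 reached an unadjusted p under 0.05 for a rise and limma-voom gave 0. With the trends removed, 1 of the 18 was higher and 1 lower at 10:6. In the run of 10 on chromosome 16, 0 were higher and 4 lower at 10:6. A run of 7 on chromosome 19, from 55476617 to 55645623, held ZNF628, ZNF579, ZNF524, ZNF865, ZNF784, ZNF581 and ZNF580, of which 0 were called at 10:6, with a median log2 change of -0.13. At 10:6, 18.3% of all genes and 36.2% of genes from 50% GC were lower, and runs of 7 and 10 are too small for their shares to be read.

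Other C2H2 families at the same level were smaller. Among 8 ZBTB genes, 1 was higher and 3 lower at 10:6, among 3 ZSCAN and ZKSCAN genes 2 and 0, among 5 ZFP genes 2 and 0, and among 10 KLF and SP genes 6 and 1, where 29.7% of all genes were higher and 18.3% lower. At 10:4 the counts were 1 and 3, 2 and 0, 1 and 2, and 6 and 3, and at 10:2 they were 0 and 0, 2 and 0, 1 and 0, and 5 and 1. These sets are too small for their shares to be read. With the trends removed the counts at 10:6 were 0 and 0, 1 and 0, 3 and 0, and 4 and 0.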

How the data were processed

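RNA sequencing of BON-1 cells gave 12 libraries in 4 groups. Per the submitters' processing notes the authors used HISAT2, featureCounts and the build hg38, with versions and strand setting not given in the sources used here. The deposited values are FPKM per gene as the authors made them. Of the nonzero values 99.9738% were whole multiples of 1 read (within 1e-07 reads, with gene lengths up to 200000 bases tried), which gave back read counts and depth. Genes that reached 1 FPKM in 3 or more libraries entered limma 3.58.1 (R 4.3.3) as log2(FPKM + 1), in a single model of all 12 libraries with a mean for each group, a trend of variance on level, Benjamini-Hochberg adjustment and a threshold of 0.05. Fold changes on this scale understate those of low genes. An alternative first removed each library's trends on GC content and length (splines with 5 degrees of freedom), and limma-voom was run on the recovered reads. Domains came from GENCODE 29 coding sequences, by a profile added after a strict motif was seen to miss divergent domains. Positions and promoters came from RefSeq (GRCh38.p14). Named genes were the 8 highest by mean, the 12 largest called rises and falls at 10:6, the 6 and 6 largest at 10:2 and at 10:4, the 5 and 5 largest between ratios, the 3 rows on each side of the threshold, and members of the role lists. Members and lists were chosen with earlier results of these data known. Figures used matplotlib 3.10.9. The fits were tested on simulated data. Depth per library was 11703624 to 21882537 reads.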

Additional observations from a re-analysis of the deposited data

How the results depend on the processing

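A pseudocount of 0.1, a robust variance model, median-of-ratios scaling and limma-voom kept the direction and the call of all 62 named changes. The call was lost by 50 with a fold of 1.5 required as well, by 4 after quantile normalization, by 4 with only the 2 groups compared in the fit and by 3 with no filter on low values. A strict motif in place of the domain profile gave 13 ZNF genes with KRAB and 6 with SCAN. For counts of ZNF genes, no filter on low values gave 4 lower at 10:2. Median-of-ratios scaling gave 12 lower at 10:2 and 2 lower from 10:2 to 10:6. Quantile normalization gave 16 lower at 10:2, 44 lower at 10:4, 9 higher and 47 lower at 10:6, 2 lower from 10:2 to 10:4 and 3 lower from 10:2 to 10:6. A further requirement of a fold of 1.5 left 3, 4 and 5 higher and 0, 0 and 0 lower at 10:2, 10:4 and 10:6, and 0 higher from 10:2 to 10:4 or to 10:6. Limma-voom gave 16 lower at 10:2, 3 lower from 10:2 to 10:4, 1 higher and 1 lower from 10:4 to 10:6, and 2 higher and 3 lower from 10:2 to 10:6. With trends on length and GC content removed, 7 were higher and 2 lower at 10:2, 13 lower at 10:4, 10 lower at 10:6, and 14 differed in the F test. Of the named changes 22 then lost the call, and 5 reversed: ZNF207 (-0.0604 at 10:2, -0.256 at 10:4 and -0.129 at 10:6), ZNF639 (-0.0840 at 10:6) and ZNF330 (-0.0591 at 10:6). The cause of these shifts was not tested.

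Same-numbered libraries did not deviate together, with r from -0.04 to 0.05 over 18 pairs. Of 12 libraries, 0 were closest to their own number in every other group at once. Such values cannot show whether same-numbered libraries shared a culture or a batch. The replicate block alone changed none of the 62 calls. With the block and the trends removed, 7 were higher and 2 lower at 10:2, 6 and 12 at 10:4, 8 and 9 at 10:6, 0 higher from 10:2 to 10:4, and 15 differed in the F test, with the same 5 reversals (-0.0604, -0.256, -0.129, -0.0840 and -0.0591). Leaving out 1 library at a time gave 8 to 13 higher and 3 to 9 lower at 10:2, 9 to 12 and 18 to 26 at 10:4, and 11 to 14 and 22 to 31 at 10:6. It gave 0 to 1 higher and 0 to 1 lower from 10:2 to 10:4, 0 and 0 from 10:4 to 10:6, 0 to 1 and 0 to 2 from 10:2 to 10:6, and 25 to 35 in the F test. Of the named changes 15 lost the call without some 1 library and 0 reversed. In each library the ZNF gene with the fewest reads had 65 to 139, and the median gene 364.5 to 677.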
